A study of Cavia porcellus with 10 samples.

Results

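The genes described here are 38 integrin, collagen receptor and focal adhesion genes: 15 integrin alpha chains, 8 integrin beta chains, the 2 discoidin receptors DDR1 and DDR2, and 13 adaptors and kinases of the adhesion complex. They were found by symbol, ignoring case, among 17642 named lines of a count table, and all 38 were present. All 38 also passed the filter on low counts that left 14683 lines to test, ITGA4 only through its myopia libraries. Libraries came from scleral tissue, the tough collagenous shell around the eye, of male guinea pigs (Cavia porcellus). Both eyes of the treated animals wore lenses that induce myopia, begun at 2 to 3 weeks of age, and control animals had no treatment. The labels give the age of 2 to 3 weeks for the control libraries as well. Each group held 5 libraries, each from 1 eye, and all of them stand as separate biosamples in the labels. The labels give neither lens power, days of wear nor which eyes share an animal. The p-values therefore measure the spread between these eyes.

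Integrins are pairs of 1 alpha and 1 beta chain that span the cell membrane. Outside the cell they bind collagen, fibronectin, laminin or latent growth factor complexes. Inside, the tail of the beta chain binds talin and kindlin, which switch the receptor on, and a plaque of adaptors and kinases ties it to actin and passes signals into the cell. In the sclera such contacts join the fibroblasts to the collagen lamellae they make and maintain. Discoidin receptors are tyrosine kinases that collagen itself activates, without integrins. The comparison asked how the transcripts of these receptors and of their plaque differed between myopic and untreated eyes.

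Total counts ran from 32309258 to 35430797 per library, and levels are given as CPM, depth-normalised counts scaled with TMM factors. Fibroblast markers were present: COL1A1 stood at 82710 ± 9356 CPM in control eyes and 35547 ± 3273 CPM in myopic eyes (mean ± SD over 5 libraries each), and all 15 markers of that list passed the filter. The control libraries 4 and 5 lay nearest to the myopia libraries on the first principal component of all genes (scores of -49.7 and -24.6, against -94.6 to -81.5 in the other control libraries and 61.5 to 72.5 in myopia). Values without these libraries are given below where they matter. As they are the controls most like myopia, leaving them out favours larger differences, and calls kept that way are no independent check. Most genes differed between the groups: with an adjusted p under 0.05 (edgeR quasi-likelihood test, Benjamini-Hochberg over all genes tested), 71.9% of all genes passed, 36.9% as higher and 35.1% as lower in myopia. The fibroblast markers split. Of the 15, 5 passed as higher (33.3%) and 8 as lower (53.3%), with a median of -0.44 on the log2 scale. COL1A1 had the lowest value of that list (-1.22). With scaling by total counts 6 passed in each direction.

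In the myopic sclera the adhesion genes moved both ways. A few receptor chains rose many-fold: ITGB8 by 21.9-fold, ITGA1 by 11.9-fold, ITGA2 by 9.10-fold and ITGA8 by 5.14-fold. ITGB5, a vitronectin receptor chain, fell 1.65-fold and ITGB1, the common partner of most alpha chains, rose 1.30-fold. Among the plaque proteins the kinase gene PTK2 and the kindlin gene FERMT2 rose, and ZYX, BCAR1, SRC and both talin genes fell. Of the 38 genes 16 rose (42.1%), 15 fell (39.5%) and 7 did not pass. ITGA4 counts among the rises although it reached the filter only through the group where it was high, and leaving it out gives 15 rises, 7 of them by at least 2-fold. These shares lie near those of all genes, so the count does not set the list apart. Its median log2 fold change was 0.15, against 0.03 for all genes. Log2 fold changes of at least 1 were reached by 8 of the rising genes (21.1%, where 19.6% of all genes did so) and falls of that size by 2 genes (5.26%, where 12.6% of all genes did so). The 5 libraries of one group all lay above or below those of the other for 24 of the 38 genes (63.2%), and for 57.8% of all genes. ITGA4 is again among the 24. In bulk tissue, fewer cells of a type and less RNA per cell cannot be told apart.

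**Figure D1:**
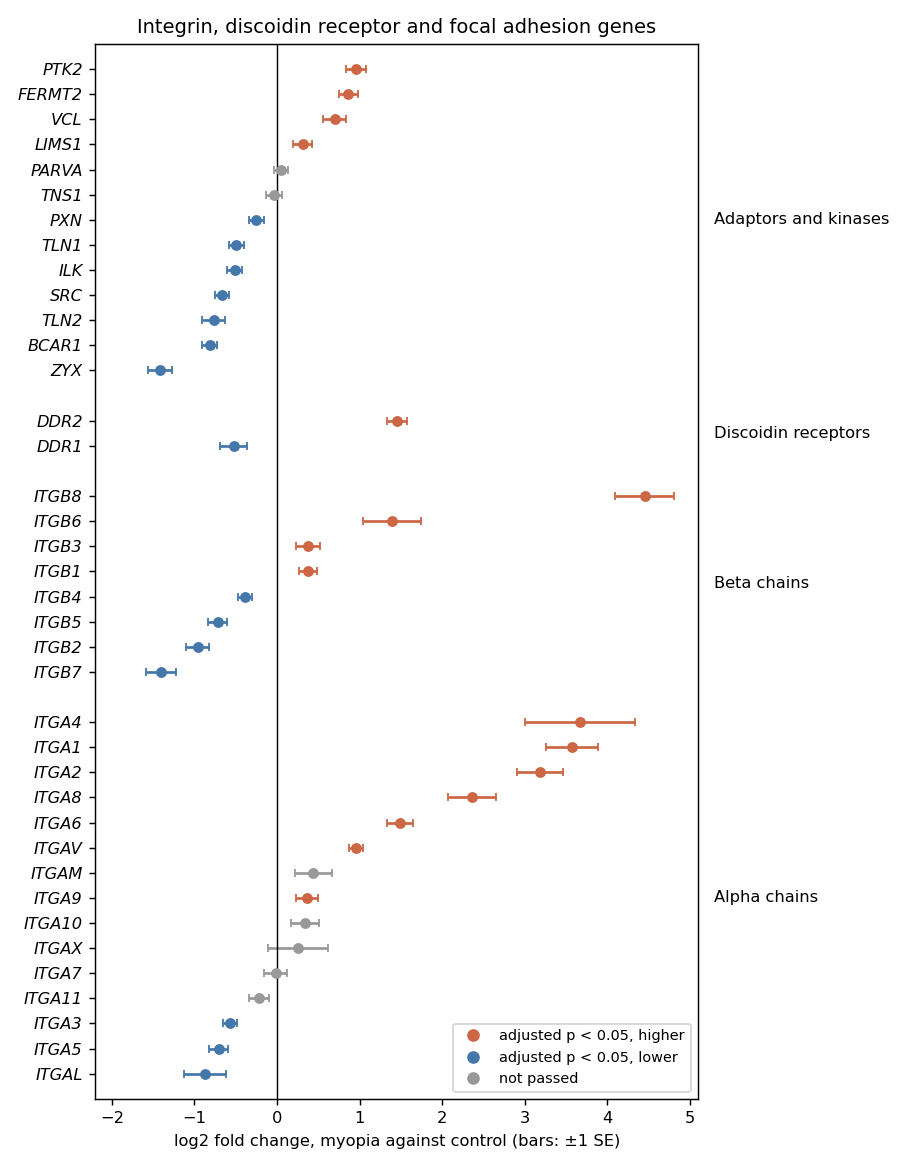
Log2 fold change of each of the 38 genes, myopia against control, with ±1 SE from the edgeR fit, grouped by class. Red points passed as higher, blue as lower and grey did not pass; ITGB8 lies farthest right at 4.45 and ZYX and ITGB7 farthest left, both at -1.41.

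By class, 7 of the 15 alpha chains rose, 3 fell and 5 did not pass, and the median change of the class was 0.36 on the log2 scale. ITGA4, which reached the filter only through the myopia libraries, is among the 7 and enters that median and the share below. Beta chains split evenly, 4 up and 4 down, with a median of -0.01. Of the 13 adaptors and kinases 4 rose, 7 fell and 2 did not pass, with a median of -0.25. These directions hold on the TMM scale. Scaling by total counts in place of TMM moved the median of all genes from 0.03 to 0.47, and the class medians with it, to 0.80, 0.44 and 0.20. Under that scaling 7631 of all 14683 genes passed as higher and 2752 as lower. Relative to the median of all genes the alpha chains stood 0.34 higher with TMM and 0.33 higher with total counts, and the adaptors 0.28 and 0.27 lower (medians of -0.28 and -0.27 after subtraction). As shares, 46.7% of the alpha chains rose, 50.0% of the beta chains rose and 50.0% fell, and 30.8% of the adaptors rose and 53.8% fell, against 36.9% and 35.1% of all genes. Nothing is read from these shares in classes of this size. All 16 rising genes, ITGA4 among them, still passed as higher with total counts. Only 6 of the 15 falling genes still passed as lower: ITGB2, ITGB5, ITGB7, TLN2, ZYX and BCAR1.

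**Figure D2:**
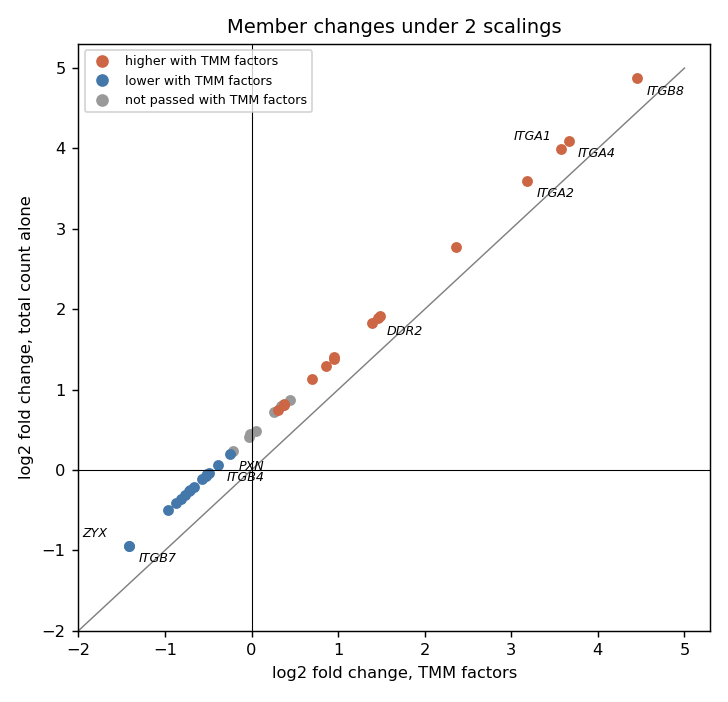
Log2 fold changes of the 38 genes with TMM factors (x axis) and with scaling by total count alone (y axis), with the line of equality in grey. All points lie above the line by a similar amount; ITGB4 and PXN, lower with TMM, come to 0.07 and 0.20 with total counts.

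The 4 collagen-binding alpha chains all pair with ITGB1. ITGA1, best known as a receptor for network-forming collagen IV, stood at 1.18, 1.83, 3.89, 2.85 and 5.52 CPM in control libraries 1 to 5. In myopia libraries 1 to 5 it stood at 35.8, 34.5, 33.8, 43.9 and 35.6 CPM. The lowest myopia library was thus far above the highest control library, and the log2 fold change was 3.57 ± 0.32 (SE; adjusted p = 1.37e-06). ITGA2, a receptor for fibrillar collagen on epithelia and platelets as well as on fibroblasts, had 1.62, 2.36, 1.77, 3.28 and 4.78 CPM in control and 26.4, 34.3, 23.0, 20.01 and 23.0 CPM in myopia. Its groups did not overlap either, and its log2 fold change was 3.19 ± 0.28 (adjusted p = 8.34e-07). For both genes control library 5 was the highest of its group, and without control libraries 4 and 5 the log2 fold changes were 3.99 and 3.73.

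ITGA11, the fibrillar collagen receptor of fibroblasts, did not follow. It had 123, 122, 115, 126 and 89.0 CPM in control and 106, 117, 87.8, 84.3 and 101 CPM in myopia, with overlapping groups. Its log2 fold change of -0.22 ± 0.12 did not pass (adjusted p = 0.11). It passed as lower without control libraries 4 and 5 (-0.27, adjusted p = 0.0279), without control 5 alone (-0.29, adjusted p = 0.0143) and without myopia 2 (-0.28, adjusted p = 0.0484), and as higher with total counts (0.24, adjusted p = 0.0382). ITGA10, the collagen receptor of cartilage cells, stood at 8.84 ± 1.52 CPM without lenses and 11.2 ± 2.15 CPM with them (mean ± SD over 5 libraries each). Its groups overlapped and its log2 fold change of 0.34 ± 0.17 did not pass (adjusted p = 0.0841). It passed as higher with upper quartile factors (0.41, adjusted p = 0.0442), with total counts (0.79, adjusted p = 0.00204), without control 3 (0.44, adjusted p = 0.0392) and without myopia 3 (0.45, adjusted p = 0.0188).

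The partner chain ITGB1 had 345, 332, 349, 401 and 447 CPM in control and 447, 547, 484, 434 and 519 CPM in myopia. Control library 5 reached into the range of the myopia libraries, and the log2 fold change was 0.38 ± 0.11 (adjusted p = 0.00773). Ratios of 2 genes within a library do not depend on the scaling factor. The ratio of ITGA1 to ITGB1 was 10.3-fold higher in myopia and that of ITGA2 to ITGB1 7.32-fold higher. That of ITGA11 to ITGB1 was 1.51-fold lower, and that of ITGA10 to ITGB1 differed by -0.05 on the log2 scale. Over the 12 pairs of genes compared in this way, the first 3 of these passed a two-sided exact permutation test with Benjamini-Hochberg adjustment (adjusted p = 0.0136, 0.0136 and 0.0317) and the last did not (adjusted p = 0.825). The smallest p that 5 against 5 libraries allow is 0.00794.

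DDR2, the discoidin receptor of fibroblasts and other connective tissue cells, binds fibrillar collagen. It stood at 99.0, 92.0, 104, 104 and 132 CPM in control and 288, 307, 319.7, 235 and 304 CPM in myopia. Every myopia library lay above every control library, and DDR2 had the smallest p of the 38 genes (log2 fold change 1.45 ± 0.12, adjusted p = 4.28e-07). DDR1, the discoidin receptor typical of epithelia, moved the other way. It had 98.8, 113, 107, 102 and 129 CPM in control and 92.4, 47.4, 66.2, 101 and 74.7 CPM in myopia, so that myopia libraries 1 and 4 lay close to or within the control range. Its log2 fold change was -0.53 ± 0.17 (adjusted p = 0.0125). That call ended without control libraries 4 and 5 (-0.46, adjusted p = 0.0878) and with total counts (-0.07, adjusted p = 0.758). The ratio of DDR2 to DDR1 was 4.07-fold higher in myopia (exact permutation test, adjusted p = 0.0136) with no overlap between groups.

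**Figure D3:**
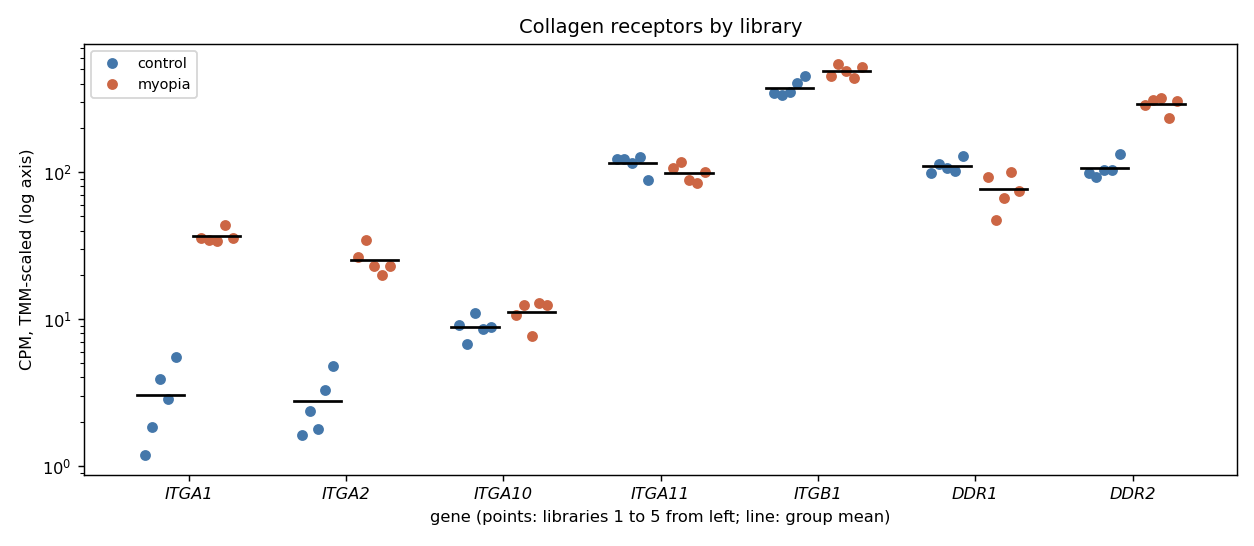
CPM (log axis) of the collagen-binding alpha chains, their partner ITGB1 and the discoidin receptors in each library, control in blue and myopia in red, with group means as lines. ITGA1, ITGA2 and DDR2 are separated between groups, and ITGA10, ITGA11, ITGB1 and DDR1 overlap.

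A further set of integrins binds the short RGD sequence of fibronectin, vitronectin and latent TGF-beta. ITGAV, the alpha chain shared by most of them, had 118, 116, 118, 115 and 126 CPM in control and 269, 224, 213, 224 and 219 CPM in myopia. The control libraries were tight (SD 4.42 CPM) and no myopia library came near them, and the fit gave 0.96 ± 0.08 on the log2 scale (adjusted p = 8.14e-07). ITGA5, the main fibronectin receptor chain, fell from 112, 89.9, 110.4, 85.7 and 93.7 CPM to 64.5, 52.8, 50.4, 69.0 and 64.6 CPM. Its groups did not overlap and its log2 fold change was -0.71 ± 0.11 (adjusted p = 8.23e-05), but with total counts it did not pass (-0.25, adjusted p = 0.0886). Within libraries the ratio of ITGAV to ITGB1 was 1.49-fold higher in myopia and that of ITGA5 to ITGB1 2.13-fold lower (exact permutation test, adjusted p = 0.0136 for both). Without control libraries 4 and 5 the ratio of ITGAV to ITGB1 no longer passed (0.46 on the log2 scale, adjusted p = 0.0536). With all libraries it was 0.57, and 5 against 3 libraries allow no p below 0.0357. ITGA8, a receptor chain for nephronectin found on smooth muscle and other mesenchymal cells, had 1.66, 1.66, 2.59, 3.90 and 5.23 CPM in control and 19.1, 15.2, 11.8, 15.6 and 16.1 CPM in myopia. All myopia libraries were higher, and the log2 fold change was 2.36 ± 0.29 (adjusted p = 9.96e-06), and 2.99 without control libraries 4 and 5.

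The beta partners of ITGAV diverged. ITGB8, which with ITGAV binds and activates latent TGF-beta, had the largest log2 fold change of the 38 genes and the 38th highest of the 14683 tested. In control libraries 1 to 5 it stood at 1.06, 1.37, 1.13, 2.16 and 4.08 CPM, and in myopia at 54.0, 40.9, 33.3, 57.4 and 32.1 CPM. Control library 5 was the highest control and was still far below the lowest myopia library. The log2 fold change was 4.45 ± 0.35 (adjusted p = 7.14e-07), and 5.20 without control libraries 4 and 5. ITGB6, the other activator of latent TGF-beta and typical of epithelia, had 1.81, 1.20, 4.98, 2.98 and 2.31 CPM in control and 6.57, 9.47, 9.24, 6.07 and 3.66 CPM in myopia. Myopia library 5 lay below control library 3, and the log2 fold change was 1.39 ± 0.35 (adjusted p = 0.00306).

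ITGB5, a vitronectin receptor chain, fell from 773, 761, 654, 707 and 547 CPM to 432, 467, 429, 346 and 415 CPM, without overlap. Its log2 fold change was -0.72 ± 0.12 (adjusted p = 0.000112). ITGB3, the beta chain of platelets, osteoclasts and growing vessels, went from 14.4 ± 2.10 to 18.8 ± 3.15 CPM (mean ± SD), with overlapping groups (0.38 ± 0.14 on the log2 scale, adjusted p = 0.0298). ITGB3 no longer passed without any one of control 2, control 4, myopia 1, myopia 3 or myopia 5 (log2 fold changes of 0.32, 0.36, 0.35, 0.32 and 0.35, adjusted p from 0.0583 to 0.0785). Relative to ITGAV within a library, ITGB8 was 12.3-fold higher in myopia, ITGB5 3.18-fold lower and ITGB3 lower by -0.58 on the log2 scale (exact permutation test, adjusted p = 0.0136, 0.0136 and 0.0238). The ITGB3 ratio no longer passed without control libraries 4 and 5 (-0.55, adjusted p = 0.0643). The smallest p that 5 against 3 libraries allow is 0.0357, so that lost call does not show that the ratio rests on those libraries. ITGB6 relative to ITGAV was 1.41-fold higher and did not pass (adjusted p = 0.329). Of the platelet markers, 1 of 4 tested passed as higher and 2 as lower (2 and 0 with total counts), and ITGA2B, the alpha chain that joins ITGB3 on platelets, stood at 10.8 ± 1.24 and 12.4 ± 1.02 CPM (adjusted p = 0.17; with total counts it passed as higher, 0.65, adjusted p = 0.000361). GP1BB, a chain of the platelet von Willebrand factor receptor, passed as lower (-0.93, adjusted p = 0.00177), but not with total counts (-0.47, adjusted p = 0.0654). Of all 14683 genes 7631 passed as higher and 2752 as lower with total counts. The part of platelets in the ITGB3 values was not tested.

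**Figure D4:**
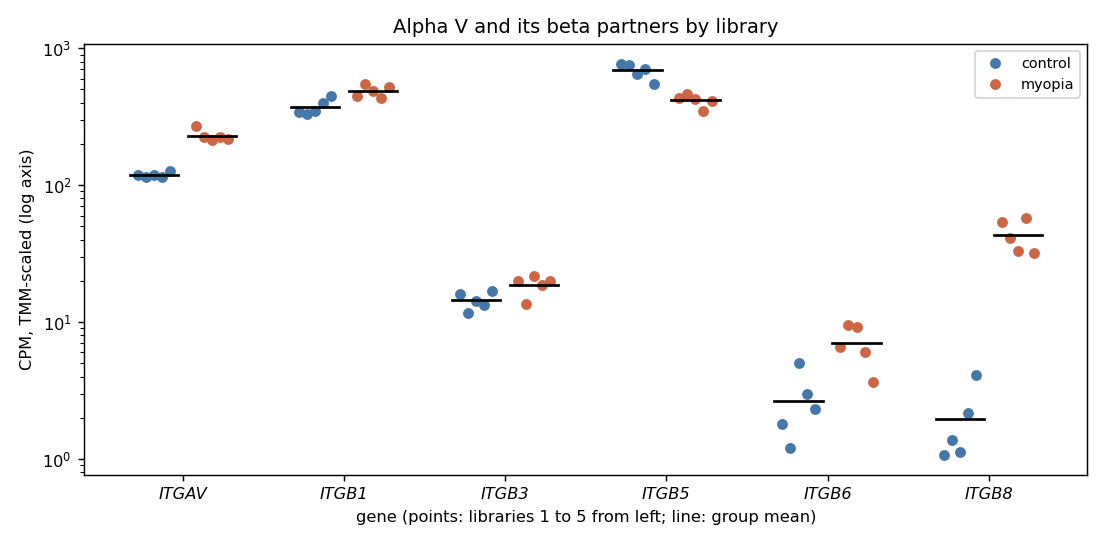
CPM (log axis) of ITGAV and the beta chains that can pair with it, in each library, control in blue and myopia in red, with group means as lines. ITGAV and ITGB8 lie higher and ITGB5 lower in all myopia libraries, while ITGB1, ITGB3 and ITGB6 overlap.

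Laminin receptors gave a mixed picture. ITGA6, which pairs with ITGB1 or ITGB4 to hold cells to basement membranes, had 24.5, 19.3, 27.5, 31.5 and 38.5 CPM in control and 78.1, 68.3, 74.7, 91.8 and 83.4 CPM in myopia. Its groups did not overlap, and its log2 fold change was 1.49 ± 0.16 (adjusted p = 2.65e-06). ITGA3, another laminin receptor chain, fell from 53.0 ± 5.26 to 35.7 ± 2.21 CPM without overlap (-0.57 ± 0.09 on the log2 scale, adjusted p = 6.59e-05). ITGB4, the long-tailed chain of hemidesmosomes that pairs with ITGA6, fell from 343 ± 24.5 to 263 ± 16.9 CPM without overlap (-0.39 ± 0.09, adjusted p = 0.00131). With total counts ITGA3 came to -0.11 (adjusted p = 0.221) and ITGB4 turned to 0.07 (adjusted p = 0.476). ITGA7, the laminin receptor chain of muscle, stood at 80.8 ± 13.7 and 79.9 ± 15.4 CPM and did not pass (-0.02 ± 0.14 on the log2 scale, adjusted p = 0.925). Its sign varied with the scaling, and with total counts it passed as higher (0.45, adjusted p = 0.0179).

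ITGA6 and ITGB4 are carried by epithelia and by the Schwann cells of nerves, and ITGA7 by muscle, so markers of these cells are set beside them. For comparison, 36.9% of all genes rose and 35.1% fell with TMM factors. With total counts 7631 of all 14683 genes rose and 2752 fell. Of 14 epithelial markers tested 3 rose and 4 fell (4 and 2 with total counts), and their summed level was 92.0 to 133 CPM in control and 68.9 to 92.0 CPM in myopia. The members of highest CPM were the simple epithelial keratins KRT19 (-0.70 on the log2 scale, adjusted p = 0.00567) and KRT8 (-1.38, adjusted p = 8.42e-06). The groups of KRT19 overlapped, and with total counts it did not pass (-0.22, adjusted p = 0.291), while KRT8 did (-0.92, adjusted p = 0.00038). The corneal and surface keratins KRT12, KRT3, KRT13 and KRT14 reached at most 16 counts in any library, and EPCAM at most 23. Of 14 Schwann cell and nerve markers 4 rose and 5 fell (7 and 2 with total counts), with sums of 4908 to 7281 CPM in control and 3091 to 8016 CPM in myopia. Among its members MBP, a myelin gene, stood at 2531 ± 753 and 2041 ± 976 CPM. Of 19 skeletal muscle markers 3 rose and 7 fell (4 and 2 with total counts), with sums of 3664 to 8870 CPM in control and 2441 to 5892 CPM in myopia, led by ACTA1 at 1084 ± 408 and 532 ± 226 CPM and CKM at 880.4 ± 392 and 579.8 ± 159.9 CPM (mean ± SD, n = 5). ACTA1 passed as lower (-1.03, adjusted p = 0.0121), but not with total counts (-0.58, adjusted p = 0.119), and CKM did not pass (-0.60, adjusted p = 0.0859). The part of these cells in the values of these integrin chains was not tested. The same holds for vessels and their mural cells, which can carry ITGA1, ITGA8 and ITGB3. Of 17 such markers 6 rose and 3 fell (11 and 0 with total counts), with sums of 2218 to 2932 CPM in control and 2184 to 3115 CPM in myopia. Those of highest CPM were ACTA2, at 513 ± 112 and 424 ± 120.1 CPM, and VWF, at 464 ± 57.0 and 331 ± 81.3 CPM. ACTA2 did not pass (adjusted p = 0.217). VWF passed as lower (-0.49, adjusted p = 0.0126), but not with total counts (-0.04, adjusted p = 0.846).

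ITGA4 and ITGA9 form a small branch of their own and bind VCAM1, fibronectin and tenascin. ITGA4, known from white blood cells and from migrating mesenchyme, was near the floor in control with 8 counts over 5 libraries, and had 143 counts over the 5 myopia libraries. Its levels were 0, 0.176, 0, 0.0328 and 0.0642 CPM in control and 1.17, 0.563, 0.924, 0.563 and 0.5003 CPM in myopia. Since ITGA4 reached the filter only through the myopia libraries, its difference is given as a description: the fitted log2 fold change was 3.67 ± 0.67, and 4.68 without control library 2, which held 5 of the 8 control counts. With no filter on low counts the fit gave 3.66. ITGA9 went from 28.7 ± 1.96 to 37.0 ± 7.65 CPM with overlapping groups (0.36 ± 0.13, adjusted p = 0.0206). Without myopia library 2, the highest at 48.5 CPM, its change no longer passed (0.25, adjusted p = 0.0612).

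Of the 5 chains that belong to integrins of white blood cells, 3 fell with TMM factors (60%, where 35.1% of all genes did so). With total counts 2 passed as lower and 1, ITGAM, as higher. Nothing is read from a share of 5 chains. ITGB2, the beta chain that all of ITGAL, ITGAM and ITGAX need, had 61.5, 74.2, 57.0, 46.3 and 42.4 CPM in control and 30.8, 26.5, 31.1, 29.7 and 26.6 CPM in myopia. Its groups did not overlap and its log2 fold change was -0.96 ± 0.14 (adjusted p = 3.28e-05). ITGB7, a chain of lymphocytes that pairs with ITGA4 or ITGAE, fell from 16.4, 15.7, 12.8, 13.5 and 10.4 CPM to 5.51, 4.17, 6.98, 5.19 and 4.03 CPM. No myopia library reached the control range (log2 fold change -1.41 ± 0.18, adjusted p = 1.28e-05). ITGAL, the alpha chain of lymphocyte function, fell from 4.07 ± 1.56 to 2.22 ± 0.423 CPM (-0.87 ± 0.26, adjusted p = 0.00828), a call that ended with total counts (-0.41, adjusted p = 0.181). ITGAM, the alpha chain of macrophages and neutrophils, stood at 8.69 ± 2.83 and 11.8 ± 2.88 CPM and did not pass (0.44 ± 0.23, adjusted p = 0.0955). It passed as higher without control libraries 4 and 5 (0.64, adjusted p = 0.0216), without control 5 alone (0.66, adjusted p = 0.00907), without myopia 2 (0.56, adjusted p = 0.0349) and with total counts (0.87, adjusted p = 0.0119). ITGAX, of dendritic cells, was near 1 CPM in both groups (1.12 ± 0.503 and 1.34 ± 0.321 CPM) and did not pass (0.26 ± 0.37, adjusted p = 0.543).

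Leukocyte markers are set beside these chains. Of 21 tested 15 fell, 1 rose and 5 missed the threshold (14 fell and 2 rose with total counts). With total counts 2752 of all 14683 genes fell and 7631 rose. With TMM factors 71.4% of the 21 markers fell, against 35.1% of all genes. The median of the list was -1.50 on the log2 scale. Its summed level was 3214 to 5849 CPM in control and 1572 to 2026 CPM in myopia. The members of highest CPM were CD74, an antigen presentation chaperone, at 2540.0 ± 727 and 1153 ± 144 CPM, and C1QA, a complement gene of macrophages, at 568 ± 149 and 121 ± 27.5 CPM. The B cell marker MS4A1 reached at most 17 counts in any library. Red blood cell markers moved with them: all 4 tested were lower in myopia with either scaling, with sums of 2504 to 10559.5 CPM in control and 100.1 to 456 CPM in myopia. The part of leukocytes and of blood in the values of ITGB2, ITGB7 and ITGAL was not tested.

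Talins and kindlins switch integrins on from inside. Talins bind the beta tail and pull on actin. TLN1, the form of most tissues, fell from 610.4, 584, 595, 549 and 556 CPM to 461, 404, 369, 437 and 387 CPM, and its groups did not overlap. The log2 fold change was -0.49 ± 0.09 (adjusted p = 0.000337), but with total counts it was -0.04 (adjusted p = 0.711). TLN2, the form prominent in muscle and brain, fell from 106, 97.0, 80.7, 75.0 and 75.2 CPM to 59.6, 60.9, 42.7, 51.5 and 39.9 CPM, also without overlap (-0.77 ± 0.14, adjusted p = 0.000249). The ratio of TLN2 to TLN1 was 1.21-fold lower in myopia and did not pass (exact permutation test, adjusted p = 0.0667). It passed without myopia 2 (-0.35 on the log2 scale, adjusted p = 0.0119). FERMT2, the kindlin of mesenchymal cells, went against the talins. It had 68.2, 63.5, 68.7, 77.8 and 98.7 CPM in control and 133, 133, 133, 144 and 143 CPM in myopia, with every myopia library above every control library (log2 fold change 0.86 ± 0.11, adjusted p = 1.45e-05).

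ILK, PARVA and LIMS1 encode the integrin-linked pseudokinase, parvin and PINCH, which assemble as 1 complex on the beta tail. Their transcripts did not move together. ILK fell from 185, 192, 175, 166 and 147 CPM to 112, 118, 116, 125 and 135 CPM without overlap (-0.51 ± 0.09, adjusted p = 0.000216; -0.05 with total counts, adjusted p = 0.564). PARVA stood at 172 ± 10.95 and 177 ± 13.4 CPM and did not pass (0.05 ± 0.08, adjusted p = 0.612), although with total counts it passed as higher (0.49, adjusted p = 0.000535). LIMS1 went from 67.5 ± 11.3 to 83.6 ± 6.87 CPM with overlapping groups (0.31 ± 0.11, adjusted p = 0.0249). The LIMS1 call ended without any one of control 1, control 3, myopia 1 or myopia 2 (0.26, 0.28, 0.27 and 0.29, adjusted p from 0.0517 to 0.0648).

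The kinases split. PTK2 (focal adhesion kinase), which is phosphorylated when integrins cluster, rose from 31.1, 31.5, 37.3, 45.8 and 47.3 CPM to 74.1, 77.1, 69.4, 71.5 and 82.2 CPM. Control libraries 4 and 5 were the highest controls, yet all myopia libraries lay above them, and the log2 fold change was 0.96 ± 0.12 (adjusted p = 1.41e-05; 1.18 without those control libraries). SRC, the kinase that PTK2 recruits, fell from 49.5, 41.0, 47.4, 43.6 and 44.6 CPM to 28.3, 26.6, 28.8, 29.8 and 29.0 CPM without overlap. Its log2 fold change was -0.67 ± 0.08 (adjusted p = 7.66e-06), and with total counts -0.21 (adjusted p = 0.0545). Their shared substrate and scaffold BCAR1 (p130Cas) fell from 69.9, 71.4, 73.2, 67.4 and 66.5 CPM to 42.6, 36.9, 33.5, 43.8 and 40.9 CPM. The groups stood apart (log2 fold change -0.82 ± 0.09, adjusted p = 3.16e-06).

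PXN (paxillin), the other scaffold, went from 93.0 ± 7.41 to 78.2 ± 6.68 CPM with overlapping groups (-0.25 ± 0.09, adjusted p = 0.0192). That call ended with upper quartile factors (-0.18, adjusted p = 0.082) and without any one of control 1, control 3 or myopia 2 (-0.20, -0.22 and -0.22, adjusted p from 0.0501 to 0.072), and the sign turned with total counts (0.20, adjusted p = 0.0941).

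VCL, ZYX and TNS1 link the plaque to actin. ZYX (zyxin), a sensor of tension on actin fibres, had the lowest log2 fold change of the 38 genes, next to ITGB7. It had 204, 172, 199, 121 and 125 CPM in control and 59.5, 59.3, 56.1, 67.9 and 65.7 CPM in myopia. Control libraries 4 and 5 were the lowest controls and still exceeded every myopia library (log2 fold change -1.41 ± 0.15, adjusted p = 2.41e-06; -1.62 without those control libraries). VCL (vinculin), which binds talin under load, moved in the opposite direction, from 57.8, 51.5, 60.6, 69.5 and 94.2 CPM to 116, 101, 102, 108 and 115 CPM. Its groups did not overlap, although control library 5 came close to the lowest myopia library (0.70 ± 0.14, adjusted p = 0.000494). TNS1 (tensin), which binds beta tails in mature adhesions, stood at 258 ± 26.3 and 253 ± 21.5 CPM and did not pass (-0.03 ± 0.10, adjusted p = 0.78). With total counts it passed as higher (0.41, adjusted p = 0.00878).

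**Figure D5:**
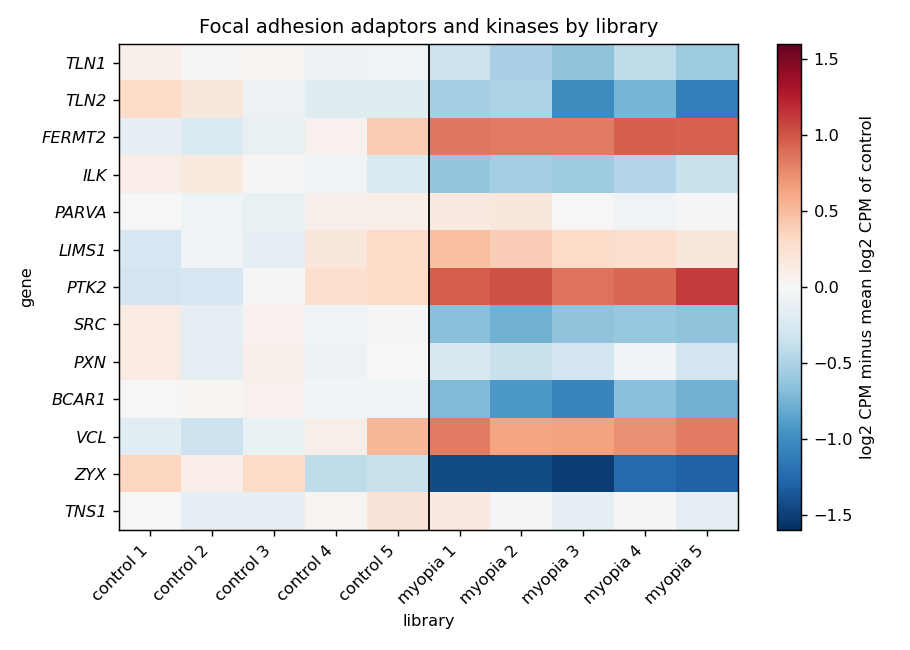
Log2 CPM of the 13 adaptors and kinases in each library (columns), relative to the mean log2 CPM of the control libraries. FERMT2, PTK2 and VCL are red and TLN1, TLN2, ILK, SRC, BCAR1 and ZYX blue in all 5 myopia libraries; control libraries 4 and 5 are red for FERMT2, PTK2 and VCL and blue for ZYX.

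The untreated eyes themselves varied in these genes. For 10 of the 16 rising genes both control libraries 4 and 5 lay above the other 3, among them ITGA2, ITGA6, ITGA8, ITGB8, DDR2, PTK2 and FERMT2. For 6 of the 15 falling genes both lay below the other 3, namely ITGB2, TLN1, TLN2, ZYX, ILK and BCAR1. Of the 72 other focal adhesion genes described below, the same held for 21 of the 29 rising and 15 of the 25 falling genes. The pattern is thus not particular to the 38 genes, and its share over all genes was not counted. Leaving control libraries 4 and 5 out kept all 16 rises, ITGA4 among them, and 14 of the 15 falls, DDR1 being the exception. Because these libraries were singled out as the controls nearest to myopia, kept calls were largely built in and are not read as support. The coefficient of variation had a median of 16.4% over the 38 genes in control and 11.2% in myopia. The summed level of the 38 genes overlapped, at 4083 to 4334 CPM in control and 3803 to 4161 CPM in myopia.

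The wider adhesion pathway gave shares near those of all genes. Of 72 other focal adhesion genes 29 rose (40.3%), 25 fell (34.7%) and 18 missed the threshold, and their median was 0.03 on the log2 scale. The 4 rising genes with the smallest p were ROCK1, a kinase that drives actomyosin contraction (17.6 ± 3.54 to 62.4 ± 4.97 CPM), PPFIBP1, a liprin (26.3 ± 7.74 to 119.0 ± 5.54 CPM), LPP, a relative of zyxin (1.19 ± 0.425 to 11.4 ± 2.36 CPM), and PIK3CA, a lipid kinase subunit (12.3 ± 1.47 to 32.7 ± 3.70 CPM; mean ± SD, n = 5). LPP and ZYX, which share their domain plan, thus changed in opposite directions, by 3.26 ± 0.25 and -1.41 ± 0.15 on the log2 scale. The 4 falling genes with the smallest p were PARVB, a parvin like PARVA (148 ± 15.8 to 67.9 ± 3.34 CPM), TGFB1I1, a paxillin relative (137 ± 24.7 to 51.7 ± 5.35 CPM), EVL, an actin polymerase cofactor (81.3 ± 12.5 to 38.7 ± 1.92 CPM), and AKT1, a survival kinase (164 ± 7.11 to 99.7 ± 2.86 CPM). These 8 genes kept their direction and passed with total counts, under which 43 of the 72 passed as higher and 16 as lower. Of all 14683 genes 7631 passed as higher and 2752 as lower with that scaling.

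Among the ligands of these receptors 6 of 35 tested rose, 11 fell and 18 did not pass (17 and 6 with total counts). With TMM factors 17.1% thus rose and 31.4% fell, against 36.9% and 35.1% of all genes. With total counts 7631 of all 14683 genes rose and 2752 fell. THBS1, thrombospondin and a ligand of ITGAV pairs and of CD47, rose from 1513 ± 385 to 3878 ± 562 CPM (1.36 ± 0.18 on the log2 scale, adjusted p = 1.54e-05). VCAM1, a ligand of ITGA4, had 209.5 ± 24.0 and 319.0 ± 91.8 CPM (0.61 ± 0.17). EDIL3, an RGD protein, had 23.9 ± 6.20 and 39.5 ± 11.7 CPM (0.72 ± 0.23), and the laminin chain LAMA2 had 250.3 ± 18.7 and 315 ± 54.6 CPM (0.33 ± 0.12). All of them passed as higher. The falling ligands with the smallest p were the collagen chains COL4A2 (-1.002 ± 0.120), COL1A1 (-1.22 ± 0.15) and COL3A1 (-0.91 ± 0.13) and the ITGA9 ligand TNC, tenascin (-0.81 ± 0.12). Transcripts of the collagen receptors ITGA1, ITGA2 and DDR2 were higher in the same libraries in which those of COL1A1 and COL3A1 were lower. This does not hold for all such genes. ITGA10 and ITGA11 did not pass, DDR1 fell, and not every collagen chain of the ligand list passed. Of the collagen receptors named below, ANTXR1 and ANTXR2 rose while MRC2 and LAIR1 fell.

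Of 16 further integrin chains and matrix receptors tested 4 rose, 5 fell and 7 did not pass (10 and 1 with total counts). With TMM factors 25% thus rose and 31.25% fell, against 36.9% and 35.1% of all genes. With total counts 7631 of all 14683 genes rose and 2752 fell. The anthrax toxin receptors ANTXR1 and ANTXR2, which bind collagen, went from 200.7 ± 57.8 to 466 ± 106 CPM (1.22 ± 0.20, adjusted p = 0.000105) and from 56.1 ± 8.92 to 76.2 ± 5.83 CPM (0.44 ± 0.11, adjusted p = 0.00214). CD47, an integrin-associated membrane protein, and ITGBL1, a secreted protein that resembles a beta chain, rose by 0.43 ± 0.09 and 0.53 ± 0.14 on the log2 scale. MRC2, a receptor that takes collagen up for degradation, fell from 819.8 ± 78.2 to 485 ± 74.6 CPM (-0.76 ± 0.12, adjusted p = 9.59e-05), also with total counts (-0.31, adjusted p = 0.00835). The hyaluronan receptor CD44 (-0.69 ± 0.11), the collagen receptor of leukocytes LAIR1 (-0.71 ± 0.18) and the syndecan SDC1 (-0.57 ± 0.17) fell with TMM factors but did not pass with total counts (-0.23, -0.24 and -0.13).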

How the data were processed

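The authors deposited a table of raw read counts per gene symbol with 1 column per library. Which aligner, annotation, counting tool and strand setting made it is not given in the sources used here. The submitters' processing notes name the builds GRCm38 and mm10, both of mouse, with no role, so no coordinates, gene lengths or sequences are given and levels are not compared between genes; CPM, which depends on transcript length, served only to pick markers. Lines without a symbol (437 of 18079) held 0.751% to 1.69% of counts per library and were left out. Where a symbol stood on several lines the line with the highest mean was used, which concerned ITGB2 alone of the 38 genes (second line: 2 to 16 counts).

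The main test on these counts was that of edgeR 4.0.16, run in R 4.3.3 (filterByExpr with a minimum count of 10 and a minimum total of 15, TMM, robust glmQLFit, glmQLFTest on group), with Benjamini-Hochberg adjustment over 14683 genes and a threshold of 0.05. SE is |log2 fold change| over √F. Control libraries had TMM factors of 0.777 to 0.968, and myopia libraries of 1.11 to 1.25. Ratios of 2 genes used log2 of counts plus 2, scaled to library size, and exact permutation tests over 252 splits. On simulated data for 14683 genes with 200 changed, the test recovered 68.0% of 2-fold and 91.0% of 4-fold changes in the right direction and called 10 unchanged genes. In the real comparison 71.9% of all genes passed. The simulation, with few genes changed, therefore does not give the error rate of that comparison. No 2 libraries of a group agreed within sampling noise (chi-square over its degrees of freedom, 18.2 to 120).

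The members, lists and tests were chosen with earlier results of these data known. The text gives every member, the 4 genes of smallest p in each direction from the 3 pathway lists, and the 2 members of highest mean CPM of marker lists set beside a result, of which 1 is not reported here. Other markers are named after their values were seen. Alternatives were other scalings (RLE, upper quartile, total count) and filters, DESeq2 1.42.0, limma-voom (limma 3.58.1), dispersion without robust estimation, a replicate block, summed lines and leaving out libraries. Marker lists of melanocytes (2 of 8 higher, 4 lower), retina and glia (3 and 5 of 14), red blood cells (0 and 4 of 4) and fibroblasts (5 and 8 of 15) were also counted.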

Additional observations from a re-analysis of the deposited data

Results flagged for a closer look

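Among 76 groups of 5 libraries (38 genes in each of the groups), 5 held a library whose gap to its neighbour exceeded 0.71 of the range of the group, and chance alone gives about 1 in 20. ITGA1 in myopia library 4 stood at 43.9 CPM, with the others at 33.8 to 35.8. ITGAV stood high in control library 5, at 125.9 CPM with the others at 115 to 118, and in myopia library 1, at 269 CPM with the others at 213 to 224. ITGAL in control library 2 stood at 6.80 CPM, with the others at 2.83 to 3.69, and without that library its log2 fold change was -0.60. PXN in myopia library 4 stood at 89.8 CPM, with the others at 72.7 to 77.5. Without the library in question ITGA1, ITGAV and ITGAL passed in the same direction, and so did PXN.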

How the results depend on the processing

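Rises of the 38 genes numbered 14 to 22 over 21 alternatives, and falls 14 to 16 except with total counts, where 6 fell. With total counts 2752 genes of all tested fell and the median of the 38 genes was 0.61; with at least 1 CPM in 5 libraries, which drops ITGA4, it was 0.0535, and on leaving out a library 0.0648 to 0.188. Of the 31 called genes 19, ITGA4 among them, passed under every alternative that gave a value. For ITGA4 this is no support, since it reached the filter only through the myopia libraries. With total counts ITGA7 came to 0.45, ITGA11 to 0.24, ITGB4 to 0.0677, PXN to 0.20 and TNS1 to 0.41. With upper quartile factors ITGA7 came to 0.0602 and TNS1 to 0.0362, with lines summed ITGA7 to 0.0025, and without control 4 and 5 TNS1 to 0.0722. On leaving out a library ITGA7 ranged from -0.12 to 0.0733, TNS1 from -0.0769 to 0.0366, the ratio of ITGA10 to ITGB1 from -0.14 to 0.0806 and that of TLN2 to TLN1 from -0.35 to -0.22. Without control 4 and 5 the ratios of ITGAV to ITGB1 (0.46, adjusted p = 0.0536) and ITGB3 to ITGAV (-0.55, adjusted p = 0.0643) no longer passed the exact permutation test. That test cannot go below 0.0357 with 5 against 3 libraries.

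Samples with the same number did not deviate together (correlations of -0.13 to 0.01), so these values gave no sign of pairing by number. They cannot exclude it, and they do not bear on eyes of 1 animal within a group. With a replicate block 10103 of all genes passed (10561 without), and of the 38 genes 15 rose and 15 fell; LIMS1 alone lost its call (0.32, adjusted p = 0.053). An exact sign-flip test over the pairs cannot go below 0.0625, so no ratio could pass there; the log2 differences with that block were 3.36 for ITGA1, 2.87 for ITGA2, -0.60 for ITGA11, -1.09 for ITGA5 and 0.57 for ITGAV relative to ITGB1, 3.61 for ITGB8, -1.67 for ITGB5 and -0.58 for ITGB3 relative to ITGAV, and 2.03 for DDR2 relative to DDR1 (adjusted p = 0.075 each). ITGA4 rests on 8 control counts.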
